A study of Mus musculus with 5 samples.

Results

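Blood-brain barrier transporters and junctions are described here through 10 genes, Slco1a4, Slco1c1, Cldn5, Ocln, Tjp1, Abcb1a, Abcg2, Mfsd2a, Slc2a1 and Flt1. They were matched by symbol among the 55385 genes of the deposited counts, each symbol had a single identifier, and all 10 passed the filter on low counts that left 19768 genes. The genes were chosen by their known place in brain endothelium and with their counts in these libraries already seen, and Slco1a4 was selected on being lower in every kainic acid library. All differences of the 10 genes from the control are therefore given as a description, without a test.

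Total RNA of the hippocampus was sequenced from 3-month-old male C57/bl6 mice. The control came from untreated mice (1 library), and the other groups received kainic acid, an agonist of glutamate receptors that provokes seizures, at 20 mg/kg by intraperitoneal injection and were killed 1 h (1 library), 4 h (2 libraries, replicate 1 and replicate 2) or 8 h (1 library) after seizure onset. According to the methods, seizure severity was scored, and mice with milder seizures were left out. The sources used here do not say whether a library came from a single mouse. The comparison with the control asks how the level of each transcript stood at each time after seizure onset. The gene counts summed to 19100374 in the untreated library, to 17744508 at 1 h, to 18250114 and 19109204 in 4 h replicates 1 and 2 and to 16612225 at 8 h. Control, 1 h and 8 h have no replicate, so the spread between libraries is known only from the pair at 4 h.

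The blood-brain barrier is formed by endothelial cells of brain capillaries, which are sealed to each other by tight junctions, let few vesicles pass, and carry nutrients, hormones and lipids through dedicated transporters while efflux pumps return many drugs to the blood. Wnt ligands from neural cells, acting through beta-catenin, maintain much of this programme. Endothelial cells are a small part of hippocampal tissue, and several of these genes are also expressed outside the endothelium: Slc2a1 and Slco1c1 in astrocytes, Tjp1 in many cell types, and Slco1a4, Slco1c1 and Ocln in the epithelium of the choroid plexus.

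Libraries that stood apart are given first. The immediate early gene Npas4 had 78 counts in the control, 12204 at 1 h, 2189 and 93 in replicates 1 and 2 at 4 h, and 90 at 8 h. Fos had 215, 17563, 8743, 1331 and 302 counts and Arc 2936, 35538, 43661, 17548 and 2658 counts in the same order. All 3 genes were far higher in the 1 h library and in 4 h replicate 1 than in the control, whereas 4 h replicate 2 had Npas4 near the control level. Both 4 h libraries carry the same label, and whether they match in time after seizure onset and in the tissue dissected was not tested, so a 4 h mean joins libraries that may not be alike. Markers of the choroid plexus and ependyma also differed between the libraries. The summed level of the 12 markers was 4062 normalized CPM (CPM scaled with TMM factors) in the control, 1721 at 1 h, 38.8 in 4 h replicate 1, 4365 in 4 h replicate 2 and 3159 at 8 h. Relative to the control these sums were 0.424, 0.00955, 1.07 and 0.778. Ratios of these markers given below are ratios of the sums. The most abundant marker alone had 3742.5 normalized CPM in the control, so it set most of that sum. The geometric mean of the markers stood at 0.489, 0.0481, 1.34 and 0.86 of the control. Transthyretin (Ttr), the most abundant of them, had 74570, 27643, 275, 75088 and 50562 counts, Folr1 675, 220, 7, 691 and 416, and Slc4a5 439, 171, 2, 503 and 363. At 1 h, 11 of the 12 markers lay at least 1.5-fold below the control, and none of the 12 was at 0 counts in any library. The barrier genes are therefore given for each 4 h library on its own, and values without 4 h replicate 1 stand beside the pair. Leaving this library out of counts of genes was chosen after seeing the data. The values at 1 h rest on a single library that also had low choroid plexus markers.

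**Figure D1:**
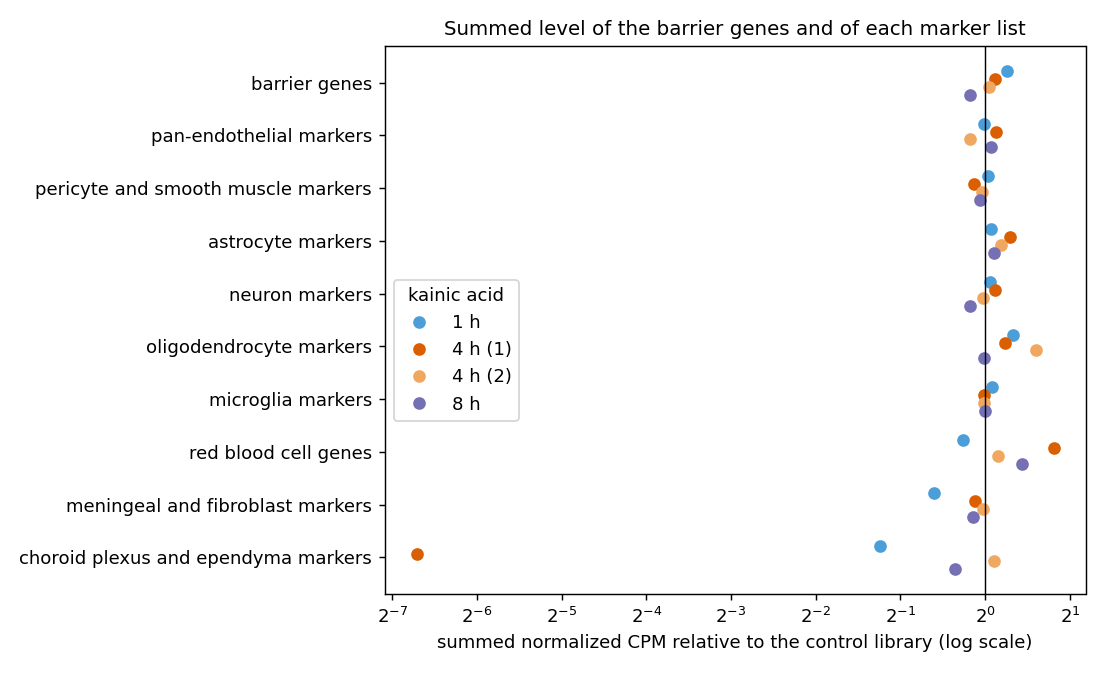
Summed normalized CPM of the barrier genes and of 9 marker lists in each kainic acid library, divided by the same sum in the control library and drawn on a log axis. The points of most lists lie near 1, while the choroid plexus and ependyma markers lie at 0.424 at 1 h and at 0.00955 in 4 h replicate 1.

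Markers of neurons summed to 4423 normalized CPM in the control and to between 3898 and 4759 in the kainic acid libraries. Such a sum does not check which brain region was dissected. The 20 pan-endothelial markers, genes of endothelial cells of any organ such as Pecam1, Cdh5 and Kdr, all passed the filter and summed to 253, 251, 275, 224 and 267 normalized CPM in the control, at 1 h, in 4 h replicates 1 and 2 and at 8 h. Cd34 was the most abundant of them (36.0 normalized CPM on average). Their geometric mean stood at 0.891, 0.985, 0.832 and 1.04 of the control in the 4 kainic acid libraries. Fewer endothelial cells and less RNA per endothelial cell cannot be told apart in whole tissue. Individual markers differed in direction: Cd93 was past 1.5-fold above the control in all 4 kainic acid libraries and Sox17 past 1.5-fold below it in all 4. Levels of the barrier genes were therefore also divided by this geometric mean, which is called the endothelial reference below.

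Levels of different genes were compared per kilobase of exon. In the control library the order was Tjp1 (18.8 normalized CPM per kilobase), Slc2a1 (16.7), Slco1c1 (13.5), Cldn5 (9.92), Mfsd2a (8.52), Slco1a4 (7.57), Abcb1a (6.28), Ocln (5.40), Flt1 (2.97) and Abcg2 (2.49). The 95% Poisson counting intervals overlapped between Cldn5 and Mfsd2a, between Mfsd2a and Slco1a4, and between Abcb1a and Ocln, so these neighbours could not be ordered at this depth. Those of the other neighbours did not overlap. Averaged over the 5 libraries, Slc2a1 stood first (28.3 per kilobase) and Abcg2 last (2.33 per kilobase). All intervals on single counts and on ratios cover counting error only.

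**Figure D2:**
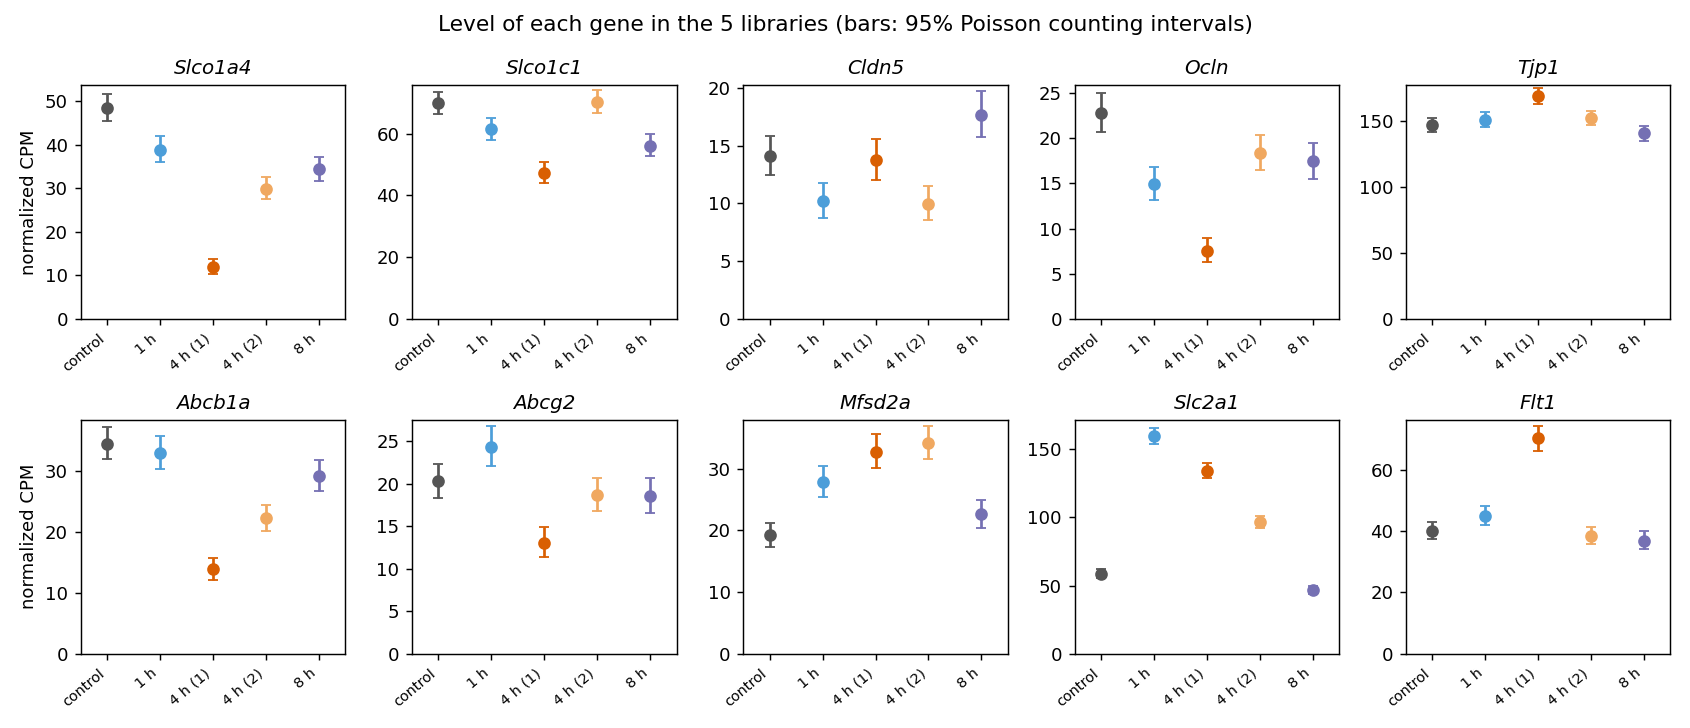
Normalized CPM of each barrier gene in the control, at 1 h, in replicates 1 and 2 at 4 h and at 8 h, with 95% Poisson counting intervals as bars. Slco1a4 lies below its control level of 48.6 in every kainic acid library, and Slc2a1 lies above its control level of 58.7 at 1 h and in both 4 h libraries.

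The organic anion and thyroid hormone transporters come first. Slco1a4 encodes an organic anion transporting polypeptide of the endothelial membrane that carries bile acids, steroid conjugates and many drugs. It had 968 counts in the control, 685 at 1 h, 202 and 567 in 4 h replicates 1 and 2 and 605 at 8 h, or 48.6, 38.9, 12.0, 30.0 and 34.5 in normalized CPM. The control was the highest of the 5 libraries, which the choice of the gene had fixed already, and 4 h replicate 1 was the lowest. The ratio to the control was 0.801 at 1 h (95% binomial counting interval 0.726 to 0.885), 0.247 in 4 h replicate 1 (0.211 to 0.287), 0.617 in 4 h replicate 2 (0.555 to 0.685) and 0.710 at 8 h (0.640 to 0.786). As log2 fold changes, Slco1a4 gave -0.32 at 1 h (SE 0.59), -1.21 at 4 h (SE 0.50) and -0.49 at 8 h (SE 0.60). The pair at 4 h was 1.32 log2 units apart, more than the 4 h fold change itself, which was -0.70 without 4 h replicate 1 and -2.01 without 4 h replicate 2. The library with the lowest Slco1a4 was the one with the lowest choroid plexus markers. At 1 h, however, those markers were at 0.424 of the control and Slco1a4 at 0.801, its highest ratio of the 4. In 4 h replicate 2 they were at 1.07 and Slco1a4 at 0.617, and at 8 h they were at 0.778 and Slco1a4 at 0.710. The part of choroid plexus tissue in the values of Slco1a4 was not tested. Divided by the endothelial reference, Slco1a4 was at 0.899, 0.250, 0.741 and 0.683 of the control.

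Slco1c1, the carrier of thyroxine across the barrier, had 69.9 normalized CPM in the control, 61.4 at 1 h, 47.3 and 70.4 in 4 h replicates 1 and 2 and 56.2 at 8 h. Its ratio to the control was 0.879 at 1 h (0.811 to 0.952), 0.676 in 4 h replicate 1 (0.619 to 0.738), 1.01 in 4 h replicate 2 (0.934 to 1.09) and 0.804 at 8 h (0.740 to 0.873). None of these libraries was past 1.5-fold, and all but 4 h replicate 2 lay below the control beyond counting error. The lowest ratio was in 4 h replicate 1, where the choroid plexus markers were at 0.00955. The highest was in 4 h replicate 2, where these markers were at 1.07. They were at 0.424 at 1 h and at 0.778 at 8 h. The part of choroid plexus tissue in the values of Slco1c1 was not tested. For Slco1c1 the log2 fold change was -0.19 at 1 h (SE 0.32), -0.25 at 4 h (SE 0.27) and -0.31 at 8 h (SE 0.32), and the 4 h value was 0.01 without 4 h replicate 1. Against the endothelial reference, Slco1c1 was at 0.986, 0.687, 1.21 and 0.774 of the control. Slco1a4 and Slco1c1 both lie on chromosome 6, 235 kb apart, but their ratios in 4 h replicate 1 (0.247 and 0.676) had separate intervals.

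The efflux pumps were Abcb1a, which encodes P-glycoprotein, and Abcg2, the breast cancer resistance protein. Abcb1a had 34.4 normalized CPM in the control, 33.0 at 1 h, 13.8 and 22.2 in 4 h replicates 1 and 2 and 29.1 at 8 h. Both 4 h libraries lay at least 1.5-fold below the control, with ratios of 0.402 (0.345 to 0.467) and 0.644 (0.569 to 0.729), while the interval at 1 h included the control level (0.957, 0.856 to 1.07). The log2 fold change of Abcb1a was -0.06 at 1 h (SE 0.38), -0.93 at 4 h (SE 0.32) and -0.24 at 8 h (SE 0.38), and -0.63 at 4 h without replicate 1. Scaling to the endothelial reference turned its 1 h value to 0.10. At 1 h, where the choroid plexus markers were at 0.424 of the control, Abcb1a was at 0.957. Its lowest ratio, 0.402, was in 4 h replicate 1, where these markers were at 0.00955. In 4 h replicate 2 they were at 1.07 and Abcb1a at 0.644. The part of choroid plexus tissue in the values of Abcb1a was not tested. Abcb1b, a close relative of Abcb1a, had between 68 and 128 counts, against between 233 and 686 for Abcb1a, and sequence shared by both was not tested.

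Abcg2 had 20.3 normalized CPM in the control, 24.4 at 1 h, 13.1 and 18.6 in 4 h replicates 1 and 2 and 18.6 at 8 h. At 1 h it lay above the control beyond counting error (1.20, 1.045 to 1.38). Only 4 h replicate 1 lay at least 1.5-fold below the control (0.642, 0.542 to 0.759), and the intervals of 4 h replicate 2 (0.917, 0.793 to 1.06) and 8 h (0.914, 0.787 to 1.06) included the control level. Fitted log2 fold changes of Abcg2 were 0.26 at 1 h (SE 0.35), -0.36 at 4 h (SE 0.30) and -0.13 at 8 h (SE 0.35). Without 4 h replicate 1 the 4 h value of Abcg2 was -0.12. Divided by the endothelial reference, it was at 1.35, 0.652, 1.10 and 0.880 of the control, so that 4 h replicate 2 changed side.

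The junction genes encode claudin-5, which sets the tightness of the barrier to small molecules, occludin, a membrane protein of tight junctions, and the scaffold protein ZO-1, which ties them to actin. Cldn5 had 14.1 normalized CPM in the control, 10.2 at 1 h, 13.7 and 9.93 in 4 h replicates 1 and 2 and 17.6 at 8 h. It was below the control beyond counting error at 1 h (0.724, 0.597 to 0.876) and in 4 h replicate 2 (0.707, 0.584 to 0.853), near it in 4 h replicate 1 (0.975, 0.816 to 1.17), and above it at 8 h (1.25, 1.06 to 1.48). The log2 fold change of Cldn5 was -0.46 at 1 h (SE 0.36), -0.25 at 4 h (SE 0.30) and 0.32 at 8 h (SE 0.35), and the 4 h value was -0.50 without replicate 1 and -0.04 without replicate 2. Here 4 h replicate 1 was the library of the pair with the higher level, unlike for Slco1a4.

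Ocln had 454 counts in the control, 263 at 1 h, 127 and 347 in 4 h replicates 1 and 2 and 306 at 8 h, or 22.8, 14.9, 7.53, 18.3 and 17.4 in normalized CPM. Every kainic acid library lay below the control beyond counting error, at 0.656 (0.561 to 0.765), 0.331 (0.269 to 0.403), 0.805 (0.698 to 0.927) and 0.765 (0.660 to 0.887). Fitted log2 fold changes of Ocln were -0.60 at 1 h (SE 0.60), -0.81 at 4 h (SE 0.51) and -0.38 at 8 h (SE 0.60), and -0.31 at 4 h without replicate 1. The lowest Ocln levels were in 4 h replicate 1 and at 1 h, the same 2 libraries that had the lowest choroid plexus markers. In 4 h replicate 2, where those markers were at 1.07 of the control, Ocln was at 0.805, and at 0.967 when divided by the endothelial reference. The part of choroid plexus tissue in the values of Ocln was not tested.

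Tjp1 had the narrowest range of ratios of the 10 genes, with 147 normalized CPM in the control, 150 at 1 h, 169 and 152 in 4 h replicates 1 and 2 and 140 at 8 h. Its ratios lay between 0.957 and 1.15, and only 4 h replicate 1 differed from the control beyond counting error (1.15, 1.09 to 1.21). Tjp1 had log2 fold changes of 0.04 at 1 h (SE 0.19), 0.13 at 4 h (SE 0.17) and -0.06 at 8 h (SE 0.19). Scaled to library size alone, the 1 h value was -0.04 and the 4 h value 0.0005. The 4 h value of Tjp1 was 0.05 without replicate 1 and 0.20 without replicate 2.

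**Figure D3:**
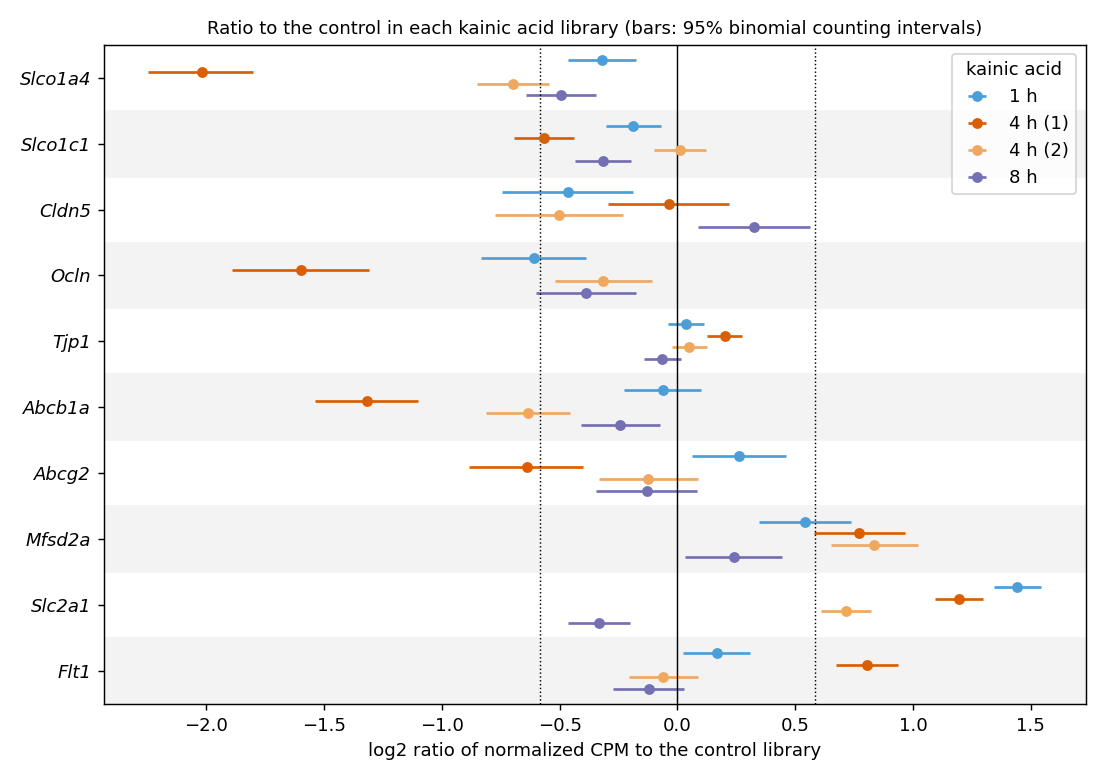
Log2 ratio of normalized CPM to the control library for each barrier gene and each kainic acid library, with 95% binomial counting intervals as bars; dotted lines mark 1.5-fold. Slco1a4, Ocln and Abcb1a lie left of 0 in all 4 libraries, Mfsd2a lies right of 0 in all 4, and Slc2a1 changes side between 4 h and 8 h.

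The lipid and glucose transporters were Mfsd2a and Slc2a1. Mfsd2a carries lysophosphatidylcholine with docosahexaenoic acid into the brain and is known for holding down vesicle transport in barrier endothelium. It had 382 counts in the control, 491 at 1 h, 552 and 648 in 4 h replicates 1 and 2 and 397 at 8 h, or 19.2, 27.9, 32.7, 34.2 and 22.6 in normalized CPM. All 4 kainic acid libraries lay above the control beyond counting error, at 1.46 (1.27 to 1.67), 1.71 (1.496 to 1.95), 1.79 (1.57 to 2.03) and 1.18 (1.02 to 1.36). The log2 fold change of Mfsd2a was 0.54 at 1 h (SE 0.25), 0.80 at 4 h (SE 0.22) and 0.24 at 8 h (SE 0.25), and 0.83 at 4 h without replicate 1 and 0.77 without replicate 2. The pair at 4 h was 0.06 log2 units apart, with replicate 2 the higher. These libraries differed widely in Npas4 and in choroid plexus markers, and the part of either difference in Mfsd2a was not tested. Against the endothelial reference the ratios of Mfsd2a were 1.63, 1.73, 2.15 and 1.14.

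Slc2a1 encodes GLUT1, the glucose transporter of the barrier and of astrocytes. It had 1170 counts in the control, 2810 at 1 h, 2265 and 1827 in 4 h replicates 1 and 2 and 818 at 8 h, or 58.7, 160, 134, 96.5 and 46.6 in normalized CPM. The 1 h library was the highest, both 4 h libraries lay between it and the control, and the 8 h library was the lowest of the 5. The ratio to the control was 2.72 at 1 h (2.54 to 2.91), 2.29 (2.13 to 2.46) and 1.64 (1.53 to 1.77) at 4 h and 0.794 at 8 h (0.725 to 0.869). The log2 fold change of Slc2a1 was 1.44 at 1 h (SE 0.28), 0.97 at 4 h (SE 0.25) and -0.33 at 8 h (SE 0.28), and 0.72 at 4 h without replicate 1. These directions were the same against the endothelial reference, where the ratios were 3.05, 2.32, 1.98 and 0.765. Markers of astrocytes, which also express Slc2a1, summed to 1.05, 1.22, 1.14 and 1.07 of the control, and their part in Slc2a1 was not tested.

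Flt1 encodes a receptor of vascular endothelial growth factor A (VEGF-A) that, in its soluble form, takes the ligand away from the signalling receptor Kdr. It had 40.1 normalized CPM in the control, 45.0 at 1 h, 70.1 and 38.5 in 4 h replicates 1 and 2 and 36.9 at 8 h. The higher 4 h level came from replicate 1 alone, at 1.75 of the control (1.60 to 1.92), while replicate 2 was at 0.959 (0.866 to 1.06). Flt1 had log2 fold changes of 0.17 at 1 h (SE 0.43), 0.44 at 4 h (SE 0.38) and -0.12 at 8 h (SE 0.43), and the 4 h value was -0.06 without replicate 1. With the endothelial reference as divisor, Flt1 was at 1.26, 1.78, 1.15 and 0.886 of the control, so that 4 h replicate 2 changed side here as well. Kdr had 12.2 normalized CPM in the control, 8.52 at 1 h, 8.01 and 7.29 in the 4 h libraries and 16.1 at 8 h. Vegfa, the ligand, had 48.4, 57.3, 109, 98.3 and 95.6 normalized CPM.

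**Figure D4:**
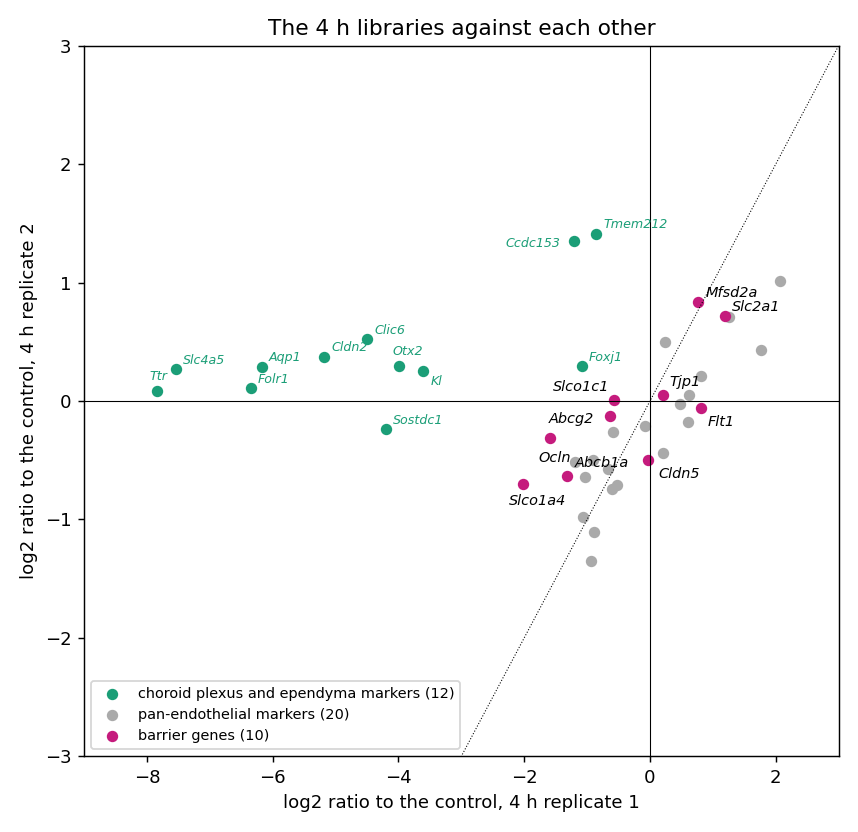
Log2 ratio to the control in 4 h replicate 1 (x axis) against 4 h replicate 2 (y axis) for the 10 barrier genes, the 20 pan-endothelial markers and the 12 choroid plexus and ependyma markers; the dotted line marks equal ratios, and the axes are not on the same scale. The choroid plexus markers Ttr, Folr1 and Slc4a5 lie far left near a y value of 0, Slco1a4 lies at -2.02 and -0.70, and Mfsd2a lies close to the dotted line.

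Taking the 10 genes as a set, 1 was at least 1.5-fold higher (Slc2a1; 10.9% of all genes tested) and 1 at least 1.5-fold lower (Ocln; 9.20% of all genes tested) at 1 h. In both 4 h libraries 2 were higher (Slc2a1 and Mfsd2a; 10.1% of all genes) and 2 were lower (Slco1a4 and Abcb1a; 6.28% of all genes), and at 8 h 0 were higher (14.1% of all genes) and 0 lower (8.94% of all genes). None was past 1.5-fold in all 4 kainic acid libraries in either direction, beside 3.32% of all genes higher and 0.85% lower. In 4 h replicate 2 alone the same 2 genes were higher (13.8% of all genes) and the same 2 lower (10.7% of all genes). In the 3 libraries other than 4 h replicate 1 none was past 1.5-fold throughout, beside 3.78% of all genes higher and 1.11% lower. Nothing is read from these counts, since the genes were chosen with the values known. Of the 10 genes, 5, 6, 6 and 8 lay below the control at 1 h, in 4 h replicates 1 and 2 and at 8 h, beside 50.9%, 50.5%, 49.7% and 48.9% of all genes tested. Below it in all 4 libraries lay 3 (Slco1a4, Ocln and Abcb1a), beside 4078 of all genes tested (20.6%), and above it in all 4 lay 1 (Mfsd2a), beside 4080 of the 19768 genes. The median log2 fold change of the 10 genes was -0.01, -0.25 and -0.19 at 1, 4 and 8 h, against -0.005, 0.01 and 0.01 over all genes tested.

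With edgeR's quasi-likelihood test and an adjusted p under 0.05 over all 19768 genes, 0 genes (0%) passed at 1 h, 1 gene (0.00506%) at 4 h, 0 genes (0%) at 8 h and 0 genes (0%) with all kainic acid libraries as a single group. The gene at 4 h was ETV3L, named after its value was seen. An unadjusted p under 0.05 was reached by 478, 2291, 892 and 454 genes, where 988 would be met by chance alone. DESeq2 called 56, 238, 33 and 13 genes, and limma-voom 0 in each comparison. The 4-group fit had 1 residual degree of freedom, which rests on the 4 h libraries, where 4830 genes (24.4%) were at least 1.5-fold apart.

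Upstream sequence was searched for motifs in all 10 genes. The windows shown were picked with the levels of their genes known, and a link between motifs and levels was not tested. The 250 bases before the start were taken from the RefSeq promoter table (GRCm38.p6), which held all 10 genes with 13 windows, and are shown for Slco1a4 (chr6:141856221-141856470, minus strand), Slc2a1 (chr4:119108495-119108744, plus strand) and Mfsd2a (chr4:122961189-122961438, minus strand), 5′ to 3′. Capitals mark matches to the searched motifs, here ACGTG, the core of the hypoxia response element, and CTTTGA, a LEF/TCF motif of Wnt signalling.
Slco1a4: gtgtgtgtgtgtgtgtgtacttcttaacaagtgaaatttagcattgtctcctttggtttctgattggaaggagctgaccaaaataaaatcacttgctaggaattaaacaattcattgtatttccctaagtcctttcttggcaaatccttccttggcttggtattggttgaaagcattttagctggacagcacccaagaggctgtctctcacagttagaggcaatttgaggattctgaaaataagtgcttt
Slc2a1: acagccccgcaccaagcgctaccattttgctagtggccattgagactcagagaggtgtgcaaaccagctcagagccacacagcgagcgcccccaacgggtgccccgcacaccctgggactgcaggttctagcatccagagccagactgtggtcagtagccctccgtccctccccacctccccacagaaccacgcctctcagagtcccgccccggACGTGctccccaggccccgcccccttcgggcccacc
Mfsd2a: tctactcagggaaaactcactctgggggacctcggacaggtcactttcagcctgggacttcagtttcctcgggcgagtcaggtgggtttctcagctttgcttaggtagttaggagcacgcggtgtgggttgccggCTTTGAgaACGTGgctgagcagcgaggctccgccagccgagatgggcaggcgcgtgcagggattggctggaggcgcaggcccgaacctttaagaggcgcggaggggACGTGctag

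The motifs were searched on both strands. ACGTG was found in 2 of the 10 genes, Slc2a1 with 1 match and Mfsd2a with 2, and in 16.6% of the 32851 windows of the table. CTTTGA was found in Abcb1a with 2 matches and Mfsd2a with 1, and in 13.8% of all windows. The cyclic AMP response element TGACGTCA was found in Flt1 and in 1 of the 3 windows of Abcg2, and in 1.55% of all windows. The AP-1 motif TGANTCA (6.75% of all windows) and the E-box CACGTG (6.02%), which contains ACGTG, were found in none of the 10 genes. The window of Slco1a4 held 39.2% G and C against 66.4% for Slc2a1 and 61.6% for Mfsd2a. Of the other genes below the control in every kainic acid library, Abcb1a had 40.4%, and the windows of Ocln had 69.2% and 64%. Tjp1 had 63.2%. A link between base content and level was not tested. The RefSeq start behind the window of Abcb1a lies 92986 bases from the start of the gene in GENCODE M21, that of Tjp1 156537 bases and that of the Abcg2 window with TGACGTCA 56023 bases. These windows are not shown. A match is a description of letters in a window, and a missing match says only that these letters are not in it.

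In GENCODE M21 (GRCm38), 10 of the 10 identifiers were found. Slco1a4 spans chr6:141805440-141856199 on the minus strand with 4 transcripts and 6414 bases of exon, and Slc2a1 spans chr4:119108711-119137983 on the plus strand with 5 transcripts and 3506 bases. Mfsd2a lies 3.81 Mb from Slc2a1, at chr4:122946850-122961188 on the minus strand. Exons of Abcb1a share 553 bases (10.1% of its exon length) with Gm42686 on the opposite strand, and those of Slc2a1 share 105 bases (2.99%) with the antisense gene Gm12868. The kit kept the strand, but the strand setting of the counting is not given in the sources used here, so reads of these antisense pairs may not have been separated. Among close relatives of Slco1a4, Slco1a5 had 63, 13, 2, 38 and 23 counts and Slco1a6 had 0 counts in 4 of the 5 libraries and 1 count in 4 h replicate 2.

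The 5 genes most like Slco1a4 in their 4 log2 ratios to the control were taken from 11644 genes with a mean of at least 100 counts. They were Slc22a8 (distance 0.323), Pcyox1l (0.381), Armc2 (0.431), Orai3 (0.441) and Slc44a5 (0.442). Slc22a8, an organic anion transporter of barrier endothelium and choroid plexus, had ratios of -0.55, -2.13, -0.67 and -0.69 on the log2 scale, where Slco1a4 had -0.32, -2.02, -0.70 and -0.49. All 4 ratios share the control library.

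Other genes of the barrier were taken from lists, and their counts are given beside the shares of all genes above. The highest and lowest genes of each list were taken among those with a mean of at least 1 normalized CPM. Of 22 further barrier transporters and receptors, 2, 3 and 2 were at least 1.5-fold higher and 1, 3 and 6 lower at 1, 4 and 8 h, with Lrp1 the most abundant (493 normalized CPM). Their extremes were Slc16a1, the lactate carrier, at 1 h (log2 fold change 1.34, SE 0.35) and 4 h (1.41, SE 0.32) and Slc38a5 at 8 h (1.09, SE 0.73), against Slc22a8 at 1 h (-0.55, SE 0.70) and 4 h (-1.20, SE 0.59; -2.13 and -0.67 in replicates 1 and 2) and Atp10a at 8 h (-1.10, SE 0.34), and Abcc6, at 17 counts or fewer, was lower in all 4 libraries. Slc16a1 had 50.2, 127, 164, 103 and 48.0 normalized CPM, so that its highest libraries were the same 3 as those of Slc2a1. Of the 13 other Slco genes 8 passed the filter, with Slco3a1 the most abundant (35.7 normalized CPM), 1, 2 and 2 higher and 2, 2 and 3 lower at 1, 4 and 8 h. Slco5a1 was the highest at each time (0.46, 3.09 and 1.61, with SE 0.50, 0.47 and 0.49) and Slco1a5 the lowest (-1.95, -1.46 and -1.20, with SE 1.45, 1.14 and 1.37), past 1.5-fold in all 4 libraries, as was Slco1b2 above the control with between 5 and 33 counts. The 4 h value of Slco1a5 joins a ratio of 0.0375 (0.00445 to 0.141) in replicate 1, from 2 counts, with 0.635 (0.413 to 0.9645) in replicate 2, from 38 counts. Its lowest libraries, 4 h replicate 1 and 1 h, were those with the lowest choroid plexus markers, whose part in its values was not tested.

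Of 22 further junction genes 21 passed the filter (Cldn25 had no entry), with Ctnnb1 the most abundant (650 normalized CPM), 2, 1 and 1 higher and 5, 0 and 1 lower at 1, 4 and 8 h. Among junction genes with a mean of at least 1 normalized CPM, Gja4 was the highest at 1 h (1.67, SE 0.62) and 4 h (0.85, SE 0.56) and Jam2 at 8 h (0.47, SE 0.30). Among the same genes, Cgnl1 (-0.68, SE 0.68), Cgn (-0.92, SE 0.55) and Nectin2 (-0.52, SE 0.45) were the lowest at 1, 4 and 8 h. The log2 ratios in 4 h replicates 1 and 2 were -1.70 and -0.44 for Cgn and -1.38 and 0.15 for Cgnl1. The 5 genes lower at 1 h were Cldn3, Tjp3, Marveld3, Cgnl1 and Gja5, named after their values were seen. They had 5, 29, 6, 550 and 4 counts at 1 h, against 10, 50, 17, 1000 and 15 in the control. The counting intervals of Cldn3, Tjp3 and Marveld3 at 1 h included the control level. Of the 5 genes, all but Gja5 had their lowest levels in 4 h replicate 1 and at 1 h, the libraries lowest in choroid plexus markers. Cgn was lowest in 4 h replicate 1. The part of choroid plexus tissue in these genes and in the count at 1 h was not tested. Of the 7 genes of caveolae and fenestrations 0, 0 and 1 were higher and 0, 1 and 1 lower, with Dnm2 the most abundant (56.5 normalized CPM). Plvap, a protein of fenestrated and leaky vessels, was the lowest at each time (-0.39, -0.86 and -0.90, with SE 0.55, 0.47 and 0.56), and Cavin2 at 1 h (0.40, SE 0.34) and Cavin1 at 4 h (0.45, SE 0.26) and 8 h (0.67, SE 0.30) were the highest.

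Of 22 genes of the Wnt/beta-catenin programme 21 passed the filter, with Lrp6 the most abundant (114 normalized CPM), 2, 1 and 1 higher and 4, 3 and 5 lower. Notum, a secreted inhibitor of Wnt proteins, was the lowest at 1 h (-0.86, SE 0.60) and 8 h (-1.44, SE 0.62) and past 1.5-fold in all 4 libraries, with 47, 22, 19, 17 and 14 counts, and Wnt7a was the lowest at 4 h (-1.54, SE 0.45). Fzd6 was the highest at 1 h (0.07, SE 0.60) and 8 h (0.51, SE 0.59) among genes with at least 1 normalized CPM. Of 18 VEGF and angiopoietin genes 16 passed the filter, with Nrp1 the most abundant (246 normalized CPM), 2, 4 and 4 higher and 1, 0 and 3 lower. Angpt2, which destabilizes vessels, was the highest at each time (1.12, 2.83 and 2.52, with SE 0.64, 0.59 and 0.62), with 17, 35, 145, 92 and 95 counts, past 1.5-fold in all 4 libraries. Pgf at 1 h (-0.56, SE 0.51) and Angpt1 at 4 h (-0.51, SE 0.31) and 8 h (-1.41, SE 0.38) were the lowest. Of the pan-endothelial markers 1, 2 and 3 were higher and 3, 5 and 2 lower, with Cd93 the highest at each time (0.67, 1.62 and 1.53, with SE 0.56, 0.51 and 0.56; 2.07 and 1.01 in 4 h replicates 1 and 2) and Sox18 at 1 h (-1.74, SE 0.66) and 4 h (-1.05, SE 0.52) and Itm2a at 8 h (-0.98, SE 0.31) the lowest. The median log2 fold changes at 1, 4 and 8 h were 0.03, -0.07 and -0.05 for the transporters and receptors, -0.15, -0.34 and -0.35 for the Slco genes, -0.04, -0.03 and 0.07 for the junction genes, -0.11, -0.01 and 0.13 for the caveolae genes, -0.26, -0.07 and -0.12 for the Wnt genes, 0.15, 0.20 and 0.25 for the VEGF genes, 0.17, 0.84 and 0.92 for endothelial activation and -0.06, -0.28 and -0.10 for the pan-endothelial markers.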

How the data were processed

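The authors prepared stranded libraries from hippocampal total RNA. Per the labels, reads were aligned with STAR 2.5.1b to GRCm38.p4 and counted with HTSeq; the sources used here give neither its version nor the annotation or strand setting. The deposited values are raw counts for 55385 genes in 5 libraries. Reads on no gene (24.7%, 29.0%, 33.1%, 25.3% and 30.9%) were left out. In R 4.3.3, edgeR 4.0.16 was used with filterByExpr, TMM factors (1.04, 0.992, 0.924, 0.991 and 1.06), a quasi-likelihood fit of 4 groups or of control against all kainic acid libraries, a prior count of 2 and Benjamini-Hochberg adjustment. The standard error of a log2 fold change is its unshrunk size divided by the square root of F. The p-values measure only the spread between these libraries, which may be technical. Normalized CPM, ratios to the control and exact Poisson and binomial 95% intervals were computed from the counts; intervals cover counting error only. A rule of 1.5-fold was used beside the test, at 4 h in both libraries. DESeq2 1.42.0, limma 3.58.1, other scalings, filters, prior counts, folds and left-out libraries were alternatives. The scripts were tested on simulated counts. Per-kilobase values used exon unions of GENCODE M21. Python 3.11.15 with matplotlib 3.10.9 made the figures. The members and gene lists were chosen with earlier results of these data known. All 10 members are named; from every other list, the most abundant gene, the highest and lowest log2 fold change at each time among genes with a mean of at least 1 normalized CPM, and genes past 1.5-fold in all 4 kainic acid libraries outside the cell type and label lists. Some genes that this rule takes are not reported here. Also named are Fos, Arc, Npas4 and the 5 genes nearest to Slco1a4 in Euclidean distance.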

Additional observations from a re-analysis of the deposited data

Results flagged for a closer look

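Slc2a1 lay above the control at 1 h and in both 4 h libraries and below it at 8 h, each time beyond counting error. Its log2 fold change at 8 h differed by -1.77 from that at 1 h and by -1.31 from that at 4 h. Cldn5 lay below the control at 1 h and above it at 8 h, with a log2 difference of 0.78 between these times. These differences between times were not tested.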

How the results depend on the processing

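The number of genes called by edgeR at 1, 4 and 8 h (0, 1 and 0) became 57, 237 and 22 with library size alone, 285, 1300 and 279 with no filter on low counts, and 56, 238 and 33 with DESeq2. The number became 1 at 1 h and 0 at 4 h with at least 10 counts in every library. At 4 h it was 0 with median-of-ratios factors and with limma-voom. Which barrier genes were among the calls is not given, since these genes were chosen with their counts already seen. For all kainic acid libraries together, DESeq2 called 13 genes against 0, and leaving out each kainic acid library in turn gave 0 to 0. The cause was not tested. At 2-fold in place of 1.5-fold, which is stricter by construction, 1070, 980 and 1342 genes were higher and 751, 299 and 666 lower at 1, 4 and 8 h, and 281 were higher and 33 lower in all 4 libraries. Without a library of the 4 h pair, an alternative chosen after seeing the data, which asks for fewer libraries, 2733 to 4169 genes were higher and 2112 to 3312 lower at 4 h. In all kainic acid libraries but 1, 748 to 1123 were higher and 219 to 456 lower, the most without the 1 h library. Of 120 alternatives of scaling and prior count for the 30 log2 fold changes of the barrier genes, 112 moved by less than 1 SD of the 4 h pair and 2 changed sign (Tjp1 at 1 h with library size alone and Abcb1a at 1 h scaled to the pan-endothelial markers). Leaving out a library of the 4 h pair moved the 4 h values by up to 0.80 and turned the sign of Slco1c1 and Flt1 without replicate 1. Library size alone put the median of all genes at -0.11 at 4 h. No paired analysis was possible because the groups share fewer than 2 replicate numbers. Control, 1 h and 8 h have 1 library each, so no value there has a replicate check.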

Other observations

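Of 16 genes of endothelial activation 13 passed the filter, with Vcam1 the most abundant (34.8 normalized CPM). The cells that held these transcripts cannot be told apart in whole tissue, which also holds for the medians of this list above. At 1, 4 and 8 h, 5, 6 and 7 were at least 1.5-fold higher and 1, 1 and 0 lower. Of all genes tested, 10.9%, 10.1% and 14.1% were higher and 9.20%, 6.28% and 8.94% lower. Plaur was the highest at 1 h, with 54 counts against 3 in the control (ratio 20.4, counting interval 6.61 to 102), and Lcn2 was the highest at 8 h (log2 fold change 3.83, SE 0.58). Lcn2 (-0.88, SE 0.87), Icam2 (-0.71, SE 0.54) and Vcam1 (-0.25, SE 0.38) were the lowest at 1, 4 and 8 h. Plaur, Ch25h and Socs3 were past 1.5-fold above the control in all 4 libraries. In the control, at 1 h, in 4 h replicates 1 and 2 and at 8 h, Ch25h had 8, 16, 47, 13 and 17 counts. Its counting interval lay above the control level in 4 h replicate 1 only. In the same order Plaur had 3, 54, 72, 14 and 16 counts and Socs3 31, 60, 655, 91 and 138. The 4 h pair was 3.015 log2 units apart for Socs3.

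The cell type lists gave the following extremes at 1, 4 and 8 h, as log2 fold changes without a test. They were taken among genes with a mean of at least 1 normalized CPM. Among pericyte and smooth muscle markers, with Rgs5 the most abundant (84.4 normalized CPM), the highest were Tagln (0.58 and 0.72) and Anpep (1.42), and the lowest Acta2 (-0.16), Atp13a5 (-0.88) and Rgs5 (-0.48). Their sums were 1.02, 0.915, 0.974 and 0.959 of the control. Among astrocyte markers, with Slc1a2 the most abundant (2742 normalized CPM), Gfap was the highest at each time (0.30, 1.32 and 1.41), and Gja1 (-0.15), Fgfr3 (-0.05) and Gja1 (-0.98) were the lowest. Among neuron markers, with Snap25 the most abundant (1477 normalized CPM), Gad1 (0.31) and Prox1 (1.28 and 0.36) were the highest and Wfs1 (-0.09), Rbfox3 (-0.53) and Stmn2 (-0.44) the lowest.

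Oligodendrocyte markers, with Mbp the most abundant (1592 normalized CPM), summed to 1.25, 1.18, 1.51 and 0.994 of the control, with Mog (0.47), Mobp (0.62) and Ermn (0.53) the highest and Mbp (0.25), Ermn (0.21) and Mog (-0.55) the lowest. Microglia markers summed to 1.06, 0.994, 0.994 and 1.00, with Aif1 (0.67) and C1qb (0.42 and 0.35) the highest and P2ry12 the lowest at each time (-0.10, -1.0 and -0.61). Meningeal and fibroblast markers, with Dcn the most abundant (33.0 normalized CPM), summed to 0.658, 0.916, 0.981 and 0.903, with Mgp (-0.16) and Col3a1 (1.47 and 1.5) the highest and Dcn (-1.11) and Slc22a6 (-0.91 and -1.57) the lowest. Red blood cell genes, with Hbb-bs the most abundant (98.4 normalized CPM), summed to 0.837, 1.75, 1.11 and 1.35, with Alas2 (-0.08) and Hbb-bt (0.72 and 0.70) the highest and Hba-a2 (-0.39) and Hba-a1 (0.24 and 0.15) the lowest. Choroid plexus and ependyma markers had Ccdc153 (-0.03), Tmem212 (0.66) and Foxj1 (0.22) as the highest and Folr1 (-1.43), Sostdc1 (-1.13) and Cldn2 (-0.61) as the lowest, where the 4 h values join libraries that differ more than 100-fold in Ttr. Among the seizure genes, Npas4 (7.43), Fos (4.76) and Bdnf (1.15) were the highest and Bdnf (2.25), Egr1 (1.15) and Nr4a1 (-0.65) the lowest. Arc was the most abundant (1167 normalized CPM). The log2 ratios in 4 h replicates 1 and 2 were 5.59 and 2.70 for Fos and 1.77 and 0.08 for Egr1.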
